A study of Mus musculus with 6 samples.

Results

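Interferon-response and DNA-sensing genes are the genes by which a cell detects foreign or misplaced nucleic acid and answers the interferon that this detection releases. They were taken from the deposited count table by gene symbol: the Ifit, Ifi, Ifitm, Irf, Oas, Oasl, Gbp and Mx families, Isg15, Isg20, Rsad2, Usp18, Bst2, Parp14, Xaf1 and Rtp4, the factor Stat2, the sensors and adaptors Ifih1, Ddx58, Dhx58, Trim25, Mb21d1, Tmem173 and Tbk1, and the antigen-processing genes B2m, Tap1, Tap2, Psmb8 and Psmb9. The rule matched 76 of the 22001 genes in the table and used no measured value. The libraries came from mouse neocortex at E14.5, 24 h after in utero electroporation at E13.5, a method that drives injected plasmid DNA into the cells lining the ventricle. All 6 libraries come from cells sorted by the red fluorescent protein mCherry, which the plasmids encode. Whether every sorted cell had received plasmid DNA was not tested, and markers of erythroid and myeloid cells were also present. The 3 control libraries had a plasmid encoding mCherry alone, the 3 Insm1 libraries had a plasmid encoding Insm1, a zinc-finger transcription factor of neural progenitors, as well as mCherry, and no library of unelectroporated cells was analysed here. The labels give no strain or promoter and do not say whether libraries of a group came from separate litters, so every p-value here rests on differences between libraries that may be technical.

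In this pathway, receptors in the cytoplasm recognise nucleic acid out of place. The enzyme cGAS (gene Mb21d1) binds DNA and signals through STING (Tmem173), while RIG-I (Ddx58) and MDA5 (Ifih1) bind RNA. Both arms converge on the kinase TBK1, which activates the factor IRF3 and so the transcription of type I interferon. Secreted interferon acts through its receptor on the same or nearby cells, where a complex that includes STAT2 and IRF9 binds the interferon-stimulated response element (ISRE) in the promoters of the antiviral effector genes. Plasmid DNA that reaches the cytoplasm is a known ligand of the DNA arm, and USP18 and SOCS1 are known to limit the response once it has begun.

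The promoters of several members are shown as examples, most of them with a match to this element, and do not represent all members. Each sequence is the 120 bases before the annotated start of transcription in RefSeq (GRCm38.p6), written 5′ to 3′ on the strand of the gene, with capitals marking matches to the ISRE core, which was searched as GAAA, any 2 bases and GAAA, and on the other strand as TTTC, any 2 bases and TTTC. Isg15 encodes a ubiquitin-like modifier (chr4:156200819-156200938, minus strand), and its 3 matches overlap.
Isg15: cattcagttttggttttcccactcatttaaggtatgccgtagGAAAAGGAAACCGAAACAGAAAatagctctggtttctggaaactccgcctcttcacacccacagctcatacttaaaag
Rsad2 encodes viperin, an antiviral enzyme (chr12:26456453-26456572, minus strand).
Rsad2: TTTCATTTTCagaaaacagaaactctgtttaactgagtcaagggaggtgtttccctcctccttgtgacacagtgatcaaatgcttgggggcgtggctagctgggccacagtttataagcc
Gbp7 encodes a guanylate-binding protein, an interferon-induced GTPase (chr3:142530216-142530335, plus strand).
Gbp7: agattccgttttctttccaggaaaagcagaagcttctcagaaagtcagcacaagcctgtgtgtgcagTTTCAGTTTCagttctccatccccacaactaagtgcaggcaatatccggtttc
Oas1a and Oas1g encode neighbouring, closely related members of the oligoadenylate synthetase family (chr5:120907526-120907645 and chr5:120887614-120887733, both on the minus strand).
Oas1a: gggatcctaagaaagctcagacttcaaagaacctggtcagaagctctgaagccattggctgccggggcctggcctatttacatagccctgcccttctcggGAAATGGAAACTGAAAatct
Oas1g: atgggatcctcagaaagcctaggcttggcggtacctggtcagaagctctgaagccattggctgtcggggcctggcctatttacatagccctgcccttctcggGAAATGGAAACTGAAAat
Tbk1 is shown as a member that differed little between libraries (chr10:121586795-121586914, minus strand).
Tbk1: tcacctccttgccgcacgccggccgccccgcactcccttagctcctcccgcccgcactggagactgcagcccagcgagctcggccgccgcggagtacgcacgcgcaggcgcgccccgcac

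The Oas1a and Oas1g windows carried identical bases at 108 of 118 aligned positions (91.5%), with a longest shared run of 56 bases that includes the capitals. Reads of such near-identical genes could be split between them by the authors' counting, so the values of single Oas1 members are uncertain. Over windows from 250 bases before to 50 bases after the start, the core was found in 22 of the 62 windows that RefSeq lists for 52 of the members (35.5%), against 3.44% of all 32851 windows of that length. The other 24 members had no window under their symbol. Among tested members with a window, 13 of the 22 with an SD within groups above 1 on the log2 scale had a match, as did 7 of the 15 with a smaller SD. The printed windows do not show this mixture. Ifitm2, whose libraries differed little, had a match, and Irf7, Ifi44 and Psmb8, which spread widely, had none. The core is a description of these letters and not a measured binding site.

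Of the 76 members, 50 had enough counts to be tested (13560 genes of the table did), 20 had some counts but too few, and 6 had no count in any library. Tested genes needed about 10 counts, or 0.325 counts per 1000000 counts (CPM), in at least 3 libraries. CPM values were scaled by TMM, a factor per library that evens out composition, and 24 tested members averaged at least 5 CPM in either group. Seen per kilobase of merged exons, high mean levels over the 6 libraries were those of Ifitm2 (29.9 CPM per kb), Usp18 (20.97), B2m (15.3) and Bst2 (14.9), while Tbk1 was at 9.07 and cGAS at 0.385. These orders hold little meaning for genes whose libraries differ as much as Usp18 and Bst2 do.

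The members were spread far more widely between libraries of one group than other genes. The pooled SD within groups of log2 CPM had a median of 1.29 in the 50 tested members and of 0.165 in all tested genes. It was above 1 in 32 of the 50 members (64.0%) and in 4.27% of all tested genes. Spread is larger at low counts, so the same was read among genes averaging at least 5 CPM in either group: there 16 of 24 members were above 1, and 62 of all 10490 genes were (0.591%). A gene could enter this set through 1 group alone, so low counts were not fully removed. Ifit1, Rsad2 and Oas1a, for example, averaged 0.977, 0.825 and 0.780 CPM in the controls. The 5 tested members with the largest SDs were Irf5, Usp18, Gbp3, Ifi44 and Ifitm3. Only Ifitm2 and Irf2 were below the median SD of all tested genes. In these bulk libraries, fewer cells holding a transcript and less of it per cell cannot be told apart.

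**Figure D1:**
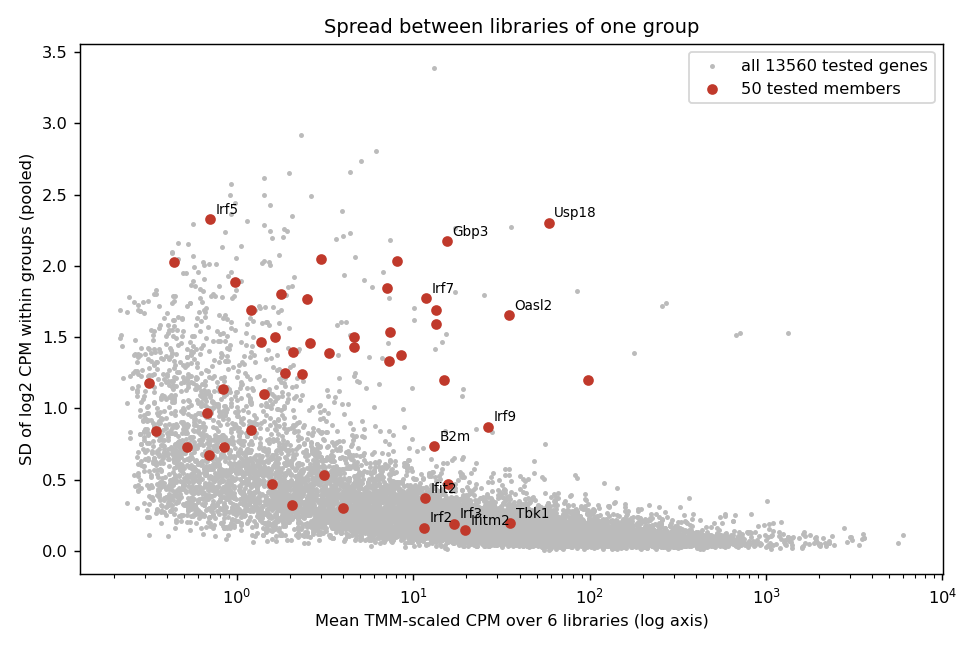
SD of log2 CPM within groups (pooled over controls and Insm1 libraries, vertical axis) against mean TMM-scaled CPM over the 6 libraries (log axis); grey points are the 13560 tested genes and red points the 50 tested members. Members such as Usp18, Gbp3 and Oasl2 lie well above the grey points of their level, while Tbk1, Irf3, Irf2 and Ifitm2 lie among them.

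Many of these genes shared part of an order of libraries. Summed over all 76 members, the level was 281, 190 and 490 CPM in controls 1, 2 and 3, and 768, 1006 and 295 CPM in Insm1 libraries 1, 2 and 3. Control 2 was the lowest library and Insm1 library 2 the highest, and Insm1 library 3 lay between controls 1 and 3, so the groups overlapped. Among single members, control 2 was the lowest control in 28 of 50 (37.4% of all tested genes), control 3 was the highest control in 36 of 50 (30.8% of all tested genes), and Insm1 library 3 was the lowest Insm1 library in 42 of 50 (31.9% of all). The order control 2, control 1, control 3 from low to high, together with Insm1 library 3 as the lowest of its group, was found in 24 of 50 members (48.0%) and in 5.84% of all tested genes. The orders counted here were read from these same values, so some excess over other genes was built in. Control 2 as the lowest control together with Insm1 library 2 as the highest of its group was found in 19 of 50 members (38.0%). The same was found in 13.7% of all tested genes. Members with at least 1 count numbered 57, 54 and 61 in the controls and 67, 69 and 60 in the Insm1 libraries.

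**Figure D2:**
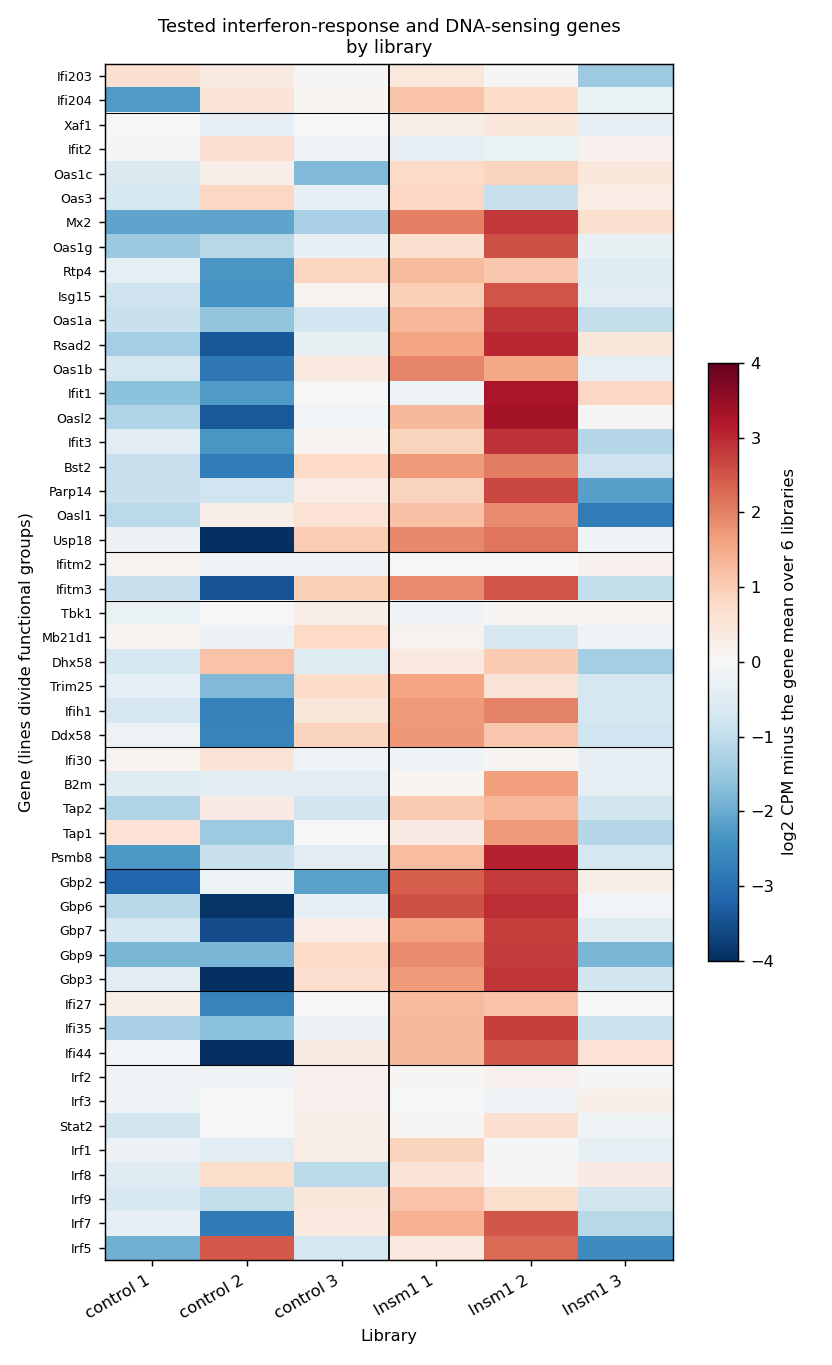
Heat map of 49 of the tested members (rows, in groups by function divided by lines) in the 6 libraries (columns); colour is log2 CPM minus the mean of the gene over the 6 libraries, from blue (lower) to red (higher). Control 2 is mostly blue, Insm1 libraries 1 and 2 mostly red, and Insm1 library 3 is closer to the controls, while Ifitm2, Tbk1, Irf2 and Irf3 are pale throughout.

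When the Insm1 group was compared with the control group, 1 of the 50 tested members was called at an adjusted p below 0.05 by edgeR's quasi-likelihood test with Benjamini-Hochberg adjustment, against 3.35% of all tested genes (1.23% higher and 2.12% lower). That member was Mx2, a gene of the Mx family of antiviral GTPases (chromosome 16, 97535308 to 97560900, plus strand). GENCODE classes it as a polymorphic pseudogene, and the labels give no strain. Whether these cells make a working Mx2 protein is therefore not known here. The Mx2 counts were 2, 2 and 5 in the controls and 68, 121 and 25 in the Insm1 libraries. All 3 Insm1 libraries were above all 3 controls, and Insm1 library 3 was the lowest of its group. The log2 fold change was 4.51 ± 0.74 (SE, n = 3 per group, adjusted p = 0.0113 by edgeR), and the ratio of summed counts, scaled for library size, was 23.7 with an exact 95% interval from 12.2 to 52.5 that covers counting error only. With so few control counts the fitted value depends on the prior count, and Mx2 passed the filter through the Insm1 libraries alone. A two-sided exact permutation test of its log2 CPM gave p = 0.1, the smallest possible with 3 libraries against 3. The call was lost without control 3 (adjusted p = 0.0538 by edgeR) and without Insm1 library 2 (adjusted p = 0.0547 by edgeR).

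The direction of the tested members leaned to the Insm1 group, but few of the differences stood clear of the spread. The median log2 fold change was 1.30 over the 50 tested members and -0.0086 over all tested genes, and the value was positive in 44 of 50 members and in 48.1% of all genes. An unadjusted p below 0.05 was found for 12 of 50 members and 17.2% of all tested genes. In 9 of 50 members the Insm1 libraries were all above the controls (10.4% of all tested genes), and in 0 they were all below (11.8%). These counts include 7 members that reached the filter level in at most 1 control library, namely Ifi204, Oas3, Mx2, Tap2, Gbp2, Gbp9 and Irf5, so they had to be high elsewhere to be tested. DESeq2, an alternative test, called 7 members (Gbp2, Ifi35, Mx2, Oas1a, Oas1g, Psmb8 and Rsad2), all higher, and 7.4% of all tested genes.

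**Figure D3:**
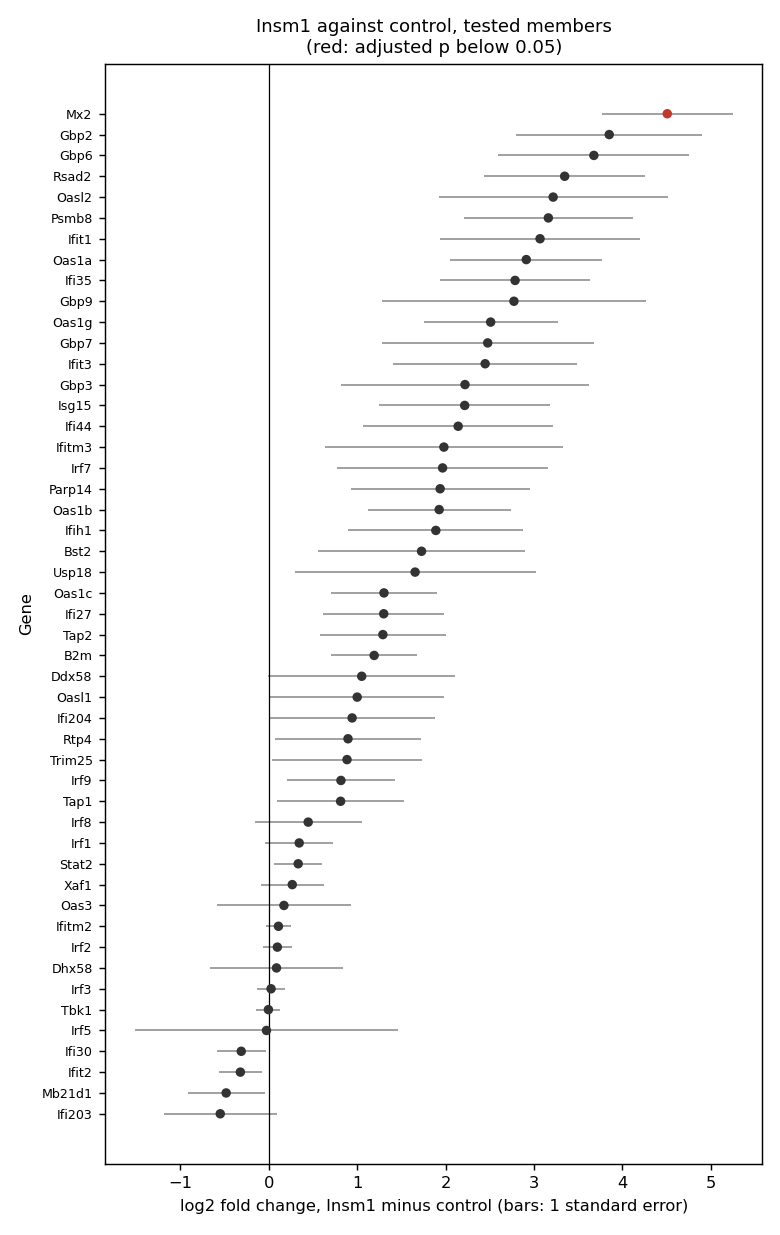
Log2 fold change of 49 of the tested members, Insm1 minus control (horizontal axis), with bars of 1 standard error; the red point is Mx2, the called member. Most points lie to the right of 0 and most bars are long: Oasl2 is at 3.22 ± 1.29 and Usp18 at 1.66 ± 1.36, whereas the bars of Tbk1, Irf3, Irf2 and Ifitm2 are short and close to 0.

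Among the transcription factors, 0 of 9 tested members were called, against 3.35% of all tested genes. Irf9, the DNA-binding partner of STAT2, was at 14.6, 11.8 and 31.1 CPM in the controls and at 50.4, 37.3 and 13.6 CPM in the Insm1 libraries. Control 3 thus exceeded Insm1 library 3, and control 2 was the lowest library. Its exons overlap those of Rnf31. Stat2, which acts with Irf9, spread less, with 9.0, 15.0 and 17.98 CPM in the controls and 15.7, 23.7 and 13.4 CPM in the Insm1 libraries.

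Irf7, the interferon-inducible factor that amplifies the response, was at 5.08, 0.844 and 8.52 CPM in the controls and at 17.1, 36.4 and 2.94 CPM in the Insm1 libraries. Insm1 library 3 was below controls 1 and 3, so the groups overlapped, and the log2 fold change of 1.97 ± 1.19 (SE) had an adjusted p of 0.517 by edgeR. Irf3, the constitutive factor upstream of interferon, differed little: it was at 15.0, 16.7 and 18.9 CPM in the controls and at 17.001, 14.7 and 19.7 CPM in the Insm1 libraries. Irf2, a relative that competes with activating IRFs, lay between 10.1 and 12.96 CPM in all 6 libraries. Irf3 shares exon bases with Bcl2l12 and Irf7 with Phrf1, each on the opposite strand, and this kind of library marks no strand.

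Control 2 was not the lowest control in every member. Irf5, a factor of myeloid cells, had counts of 1, 60 and 5 in the controls and 13, 52 and 0 in the Insm1 libraries. It was high in control 2, and its exons overlap those of Tnpo3 on the opposite strand. Gbp5 and Dhx58, chosen after their values were seen, were also highest in control 2 among the controls. Gbp5, which had too few counts to be tested, had counts of 9, 58 and 4 there and 8, 15 and 10 in the Insm1 libraries. Dhx58, which encodes the RNA receptor LGP2, had 12, 49 and 14 counts in the controls and 28, 45 and 7 in the Insm1 libraries. Other members were highest in control 2 among the controls too. Among them, Ifi30, Oas1c, Tap2 and Gbp2 were highest in library 2 of the Insm1 group, as were Irf5, Gbp5 and Dhx58, but Ifit2, Ifi204 and Oas3 were not. Markers of microglia and macrophages, the myeloid cells of the brain, were also highest in control 2: their summed level was 2.56, 120 and 15.1 CPM in the controls and 17.4, 58.0 and 29.7 CPM in the Insm1 libraries. All 15 markers in the table were highest in control 2 among the controls, led by Csf1r and C1qb, and Spi1, Trem2 and Tyrobp were at 0 counts in control 1. The part of these myeloid cells in the values of Irf5, Gbp5, Dhx58 and the other members named here was not tested.

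Among the sensors and adaptors, 0 of 6 tested members were called (3.35% of all tested genes), and the DNA arm was low. cGAS was at 1.62, 1.27 and 2.68 CPM in the controls and at 1.68, 0.940 and 1.36 CPM in the Insm1 libraries. The groups overlapped (log2 fold change -0.48 ± 0.43, SE, edgeR adjusted p = 0.658). STING was not tested: it had 11, 0 and 0 counts in the controls and 1, 1 and 0 in the Insm1 libraries. In the Ifi200 family, whose members include DNA sensors, Ifi203 and Ifi204 were tested and not called, Ifi205 had too few counts, and Ifi202b had none. These 4 genes together summed to between 0.36 and 1.36 CPM per library.

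Of the RNA receptors, RIG-I and MDA5 were high and low in much the same libraries as Irf9, and LGP2, given above, was not. RIG-I (Ddx58) was at 7.90, 1.36 and 16.9 CPM in the controls and at 30.1, 19.0 and 5.14 CPM in the Insm1 libraries. MDA5 (Ifih1) was at 2.72, 0.617 and 6.01 CPM in the controls and at 14.4, 17.6 and 2.68 CPM in the Insm1 libraries. Both were lowest in control 2 and, among the Insm1 libraries, in library 3, and Trim25, the ubiquitin ligase that activates RIG-I, had the same order in the controls, from 3.38 CPM in control 2 to 19.3 CPM in control 3, and lay between 7.08 and 34.9 CPM in the Insm1 group. All 3 are interferon-inducible as well as upstream of interferon. Tbk1, the kinase both arms share, was at 29.6, 34.9 and 42.0 CPM in the controls and at 32.3, 37.1 and 36.9 CPM in the Insm1 libraries. Its group means were 35.5 ± 6.23 and 35.4 ± 2.74 CPM (SD, n = 3 each), a difference well within the spread.

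**Figure D4:**
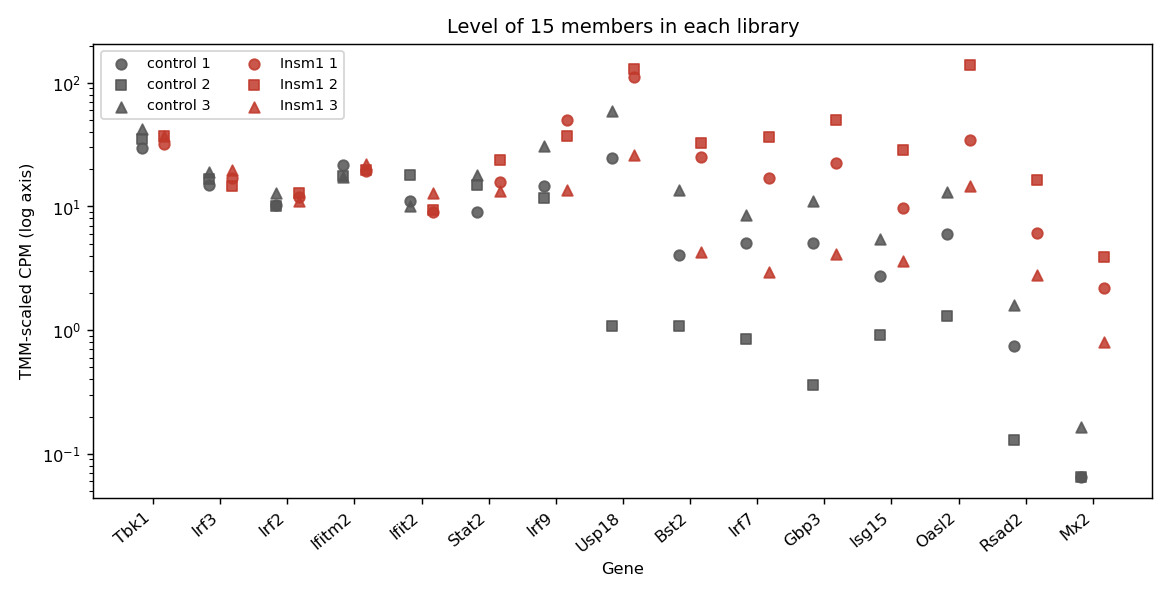
TMM-scaled CPM (log axis) of 15 members in each library, controls in grey and Insm1 libraries in red, with the marker shape giving the library number. Tbk1, Irf3, Irf2, Ifitm2 and Ifit2 form tight clusters, whereas Usp18 and Gbp3 span from below 1.1 CPM in control 2 to 50 CPM or more in Insm1 library 2, and of these 15 only Oasl2, Rsad2 and Mx2 have every red point above the grey ones.

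The antiviral effectors formed the largest group, with 25 members, of which 18 were tested, 1 (Mx2) was called and 7 had an unadjusted p below 0.05. Of all tested genes, 3.35% were called and 17.2% had an unadjusted p below 0.05. The median log2 fold change of the tested effectors was 1.93. Summed, they were at 60.3, 29.4 and 124 CPM in the controls and at 234, 436 and 78.7 CPM in the Insm1 libraries, so control 3 was above Insm1 library 3. Usp18, a protease that removes ISG15 from proteins and dampens interferon receptor signalling, was at 24.6, 1.07 and 58.9 CPM in the controls and at 111, 130 and 26.0 CPM in the Insm1 libraries. Control 3 was 55.0 times control 2, the largest such ratio among tested members with more than 3 counts in every control. The log2 fold change of 1.66 ± 1.36 (SE) was not called (edgeR adjusted p = 0.654).

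Isg15, the modifier whose promoter is printed above, was at 2.72, 0.909 and 5.42 CPM in the controls and at 9.66, 28.8 and 3.65 CPM in the Insm1 libraries. Only Insm1 library 3 overlapped the controls (log2 fold change 2.22 ± 0.97, SE, edgeR adjusted p = 0.339). Bst2, encoding tetherin, which holds budding virus at the cell surface, was at 4.08, 1.07 and 13.55 CPM in the controls and at 25.3, 32.3 and 4.30 CPM in the Insm1 libraries, again with control 3 above Insm1 library 3. Rtp4, an interferon-inducible receptor-transporter protein, was at 4.18, 1.04 and 9.99 CPM in the controls and at 13.1, 11.5 and 3.75 CPM in the Insm1 libraries. As for Irf9, control 2 was the lowest library and Insm1 library 3 was below control 3 in all of these.

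Oasl2 and Rsad2 were among the members whose groups did not overlap. Oasl2, a relative of the oligoadenylate synthetases, was at 5.99, 1.30 and 13.1 CPM in the controls and at 34.7, 140 and 14.545 CPM in the Insm1 libraries. Its lowest Insm1 library was barely above its highest control, and the log2 fold change was 3.22 ± 1.29 (SE, edgeR adjusted p = 0.33). Rsad2 was at 0.745, 0.130 and 1.60 CPM in the controls and at 6.08, 16.4 and 2.78 CPM in the Insm1 libraries, a log2 fold change of 3.35 ± 0.91 (SE, edgeR adjusted p = 0.116). Insm1 library 2 was the highest library for both genes by a wide margin.

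Within the synthetases that make the second messenger of RNase L, Oas1a was at 0.874, 0.519 and 0.947 CPM in the controls and at 4.27, 12.6 and 0.840 CPM in the Insm1 libraries. Its controls were close together and its Insm1 libraries spanned 15.0-fold, so library 3 fell among the controls (log2 fold change 2.91 ± 0.86, SE, edgeR adjusted p = 0.128). Without Insm1 library 2 the log2 fold change was 1.71. Oas2 was not tested, with 0, 0 and 1 counts in the controls and 9, 72 and 3 in the Insm1 libraries, and it was singled out after its values were seen. Oas1d and Oas1f had no count in any library.

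The Ifit family, whose proteins bind foreign RNA, differed in which libraries were high. Ifit1 was at 0.583, 0.357 and 1.99 CPM in the controls and at 1.75, 19.3 and 3.59 CPM in the Insm1 libraries, highest in Insm1 library 2. Ifit2 was at 11.1, 17.9 and 10.1 CPM in the controls and at 8.99, 9.43 and 12.8 CPM in the Insm1 libraries. For Ifit2, control 2 was the highest library and not the lowest, and the log2 fold change was -0.32 ± 0.24 (SE, edgeR adjusted p = 0.576). The Ifitm family of membrane proteins that block virus entry held a similar contrast. Ifitm3 was at 2.01, 0.292 and 7.51 CPM in the controls and at 14.545, 22.2 and 1.97 CPM in the Insm1 libraries, while Ifitm2, its close relative on chromosome 7, stayed between 17.4 and 21.8 CPM in all 6 libraries. The other 5 Ifitm members were not tested.

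The guanylate-binding proteins had the largest median log2 fold change of the 8 functional groups of members. It was 2.77 over 5 tested members, with 0 called (3.35% of all tested genes). Of these 5, Gbp2 and Gbp9 reached the filter level in only 1 control library, so they had to be high elsewhere to be tested. The summed level of the group was 7.83, 2.92 and 16.5 CPM in the controls and 42.8, 87.5 and 8.24 CPM in the Insm1 libraries. Gbp3 was at 5.05, 0.357 and 11.03 CPM in the controls and at 22.4, 50.2 and 4.10 CPM in the Insm1 libraries. Control 2 was again the lowest library, and Insm1 library 3 was below controls 1 and 3. Gbp7 was at 2.10, 0.227 and 4.18 CPM in the controls and at 10.47, 23.5 and 2.36 CPM in the Insm1 libraries, again with control 2 lowest and Insm1 library 3 below control 3.

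Gbp2 and Gbp6 had the second and the third largest log2 fold changes of the 50 tested members. Gbp2 had a summed count of 16 in the controls and 237 in the Insm1 libraries, and its levels were 0, 0.454 and 0.0653 CPM against 3.07, 3.99 and 0.614 CPM. The groups did not overlap, and the log2 fold change of 3.85 ± 1.05 (SE) had an adjusted p of 0.0904 by edgeR. Without control 2, the control with the most Gbp2 reads, it was called (edgeR adjusted p = 0.0181). Gbp6 was at 0.389, 0 and 0.685 CPM in the controls and at 5.59, 7.45 and 0.840 CPM in the Insm1 libraries (log2 fold change 3.68 ± 1.08, SE, edgeR adjusted p = 0.128). Reads of the clustered Gbp genes can also be split between copies, and Gbp4, Gbp8 and Gbp9 share exon bases.

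Among the antigen-processing members, 0 of 5 tested were called (3.35% of all tested genes). B2m, the invariant chain of MHC class I molecules, was at 7.71, 8.05 and 8.29 CPM in the controls and at 11.6, 34.6 and 8.86 CPM in the Insm1 libraries. Its groups did not overlap, but Insm1 libraries 1 and 3 were near the controls and library 2 far above them (log2 fold change 1.19 ± 0.48, SE, edgeR adjusted p = 0.262). Without that library the log2 fold change was 0.35. Among genes named for interferon induction alone, Ifi44 was at 1.39, 0 and 1.93 CPM in the controls and at 3.78, 8.65 and 2.26 CPM in the Insm1 libraries. It was another member that was absent from control 2 and highest in Insm1 library 2.

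Other genes of the pathway that the rule did not take were read from the same fit. In that fit 3.35% of all tested genes were called and 17.2% had an unadjusted p below 0.05. Of 25 interferon ligands, receptors and JAK-STAT signalling genes in the table, 14 were tested and 0 were called, with 1 at an unadjusted p below 0.05. Their summed level was 657, 636 and 651 CPM in the controls and 635, 666 and 673 CPM in the Insm1 libraries. No library stood out in this sum, to which rare genes add little. The most abundant, Pias1, an inhibitor of STAT signalling, lay between 90.8 and 119 CPM, and Ifngr2, a chain of the interferon gamma receptor, between 78.5 and 92.3 CPM. The 10 interferon ligand genes in the table had no count in any of the 6 libraries, which at this depth allows up to 3 counts, or between 0.0948 and 0.0999 CPM, per library. Interferon made by cells outside the sort is not measured by these libraries.

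Of 24 other genes of nucleic acid sensing, 21 were tested and 0 called (3 at an unadjusted p below 0.05), and their sums lay between 766 and 816 CPM. Traf6 and Trim32, ubiquitin ligases of immune signalling, were the most abundant, at 84.9 to 122 CPM and 89.2 to 110 CPM. Of 14 nucleases and editors that limit self nucleic acid, 12 were tested and 0 called (0 at an unadjusted p below 0.05). Of all tested genes, 3.35% were called and 17.2% had an unadjusted p below 0.05. Banf1, a DNA-binding protein that limits cGAS, lay between 132 and 151 CPM. Adar, an RNA-editing enzyme, lay between 75.2 and 111 CPM. The median SDs within groups of these lists were 0.17 for ligands, receptors and signalling, 0.18 for sensing and 0.15 for nucleases and editors, near the 0.165 of all tested genes.

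Interferon-stimulated genes outside the rule were, like the members, lowest in control 2 and highest in Insm1 library 2 when summed. Of 41 in the table, 30 were tested. Of these 30, 1 was called (3.35% of all tested genes) and 6 had an unadjusted p below 0.05 (17.2%). Their median log2 fold change was 0.80 and their median SD within groups was 0.79. The summed level of all 41 was 282, 214 and 412 CPM in the controls and 613, 702 and 274 CPM in the Insm1 libraries. The called gene was Tgtp2, an interferon-induced GTPase, with 1, 0 and 0 counts in the controls and 24, 44 and 13 in the Insm1 libraries (edgeR adjusted p = 0.0148), and like Mx2 it passed the filter through the Insm1 libraries alone. The ratio of its summed counts was 80.7, with an exact 95% interval from 14.1 to 3225 that covers counting error only. All 18 genes of MHC class I and peptide loading were tested and 0 were called. An unadjusted p below 0.05 was found for 9 of them (17.2% of all tested genes). The 18 genes summed to 1441, 1270 and 1442 CPM in the controls and 1494, 1698 and 1402 CPM in the Insm1 libraries, a narrower range with the same lowest and highest library. Canx and Pdia3, chaperones of folding glycoproteins and the most abundant of these, lay between 467 and 554 CPM and between 380 and 472 CPM. They weigh heavily in the sum. The median log2 fold change of the 18 genes was 0.26. Their median SD within groups was 0.43, against 0.165 in all tested genes.

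**Figure D5:**
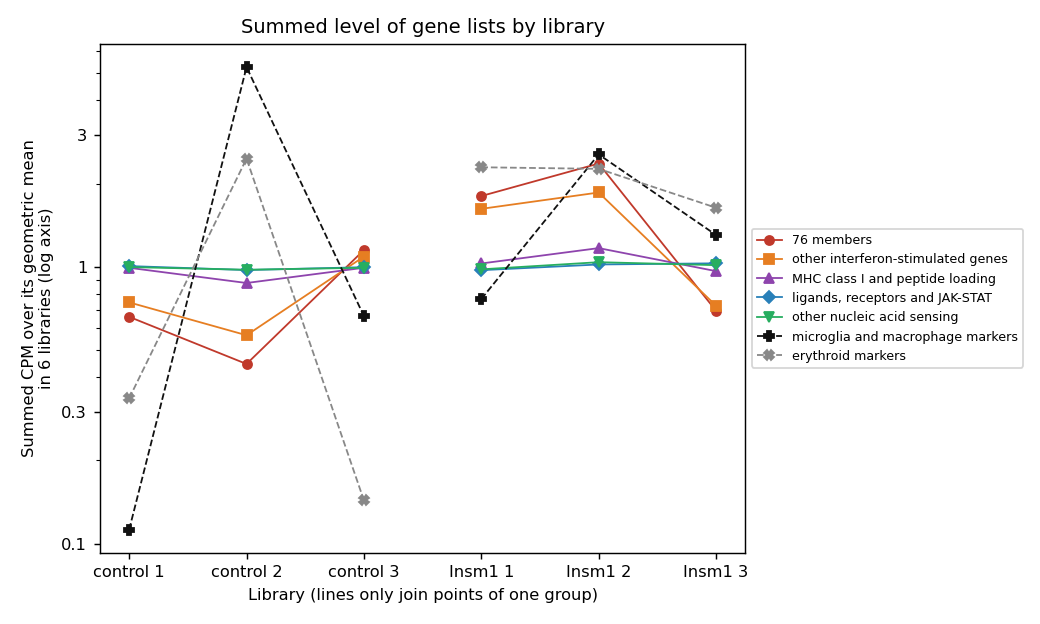
Summed CPM of each gene list in each library, divided by the geometric mean of the list over the 6 libraries (log axis); lines join libraries of one group only. The 76 members and the other interferon-stimulated genes are lowest in control 2 and highest in Insm1 library 2, ligands and sensing genes stay near 1, and the microglia and erythroid markers peak in control 2 among the controls.

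The libraries held 30017645 to 31645135 counts, and Insm1 itself was at 222 to 371 CPM in the controls and 1436 to 2173 CPM in the Insm1 libraries. Plekha7, the junction protein named in the title of the study, was at 13.4 to 15.7 and 6.90 to 10.1 CPM. Markers of the labelled tissue were present. Of all tested genes, 1.23% were called higher and 2.12% lower. Basal progenitor markers such as Eomes and Elavl2 were at 1739, 1893 and 1884 CPM in the controls. They were at 2005, 1706 and 1863 CPM in the Insm1 libraries, so the groups overlapped, with 2 of 7 called higher. The sums of apical progenitor and projection neuron markers did not overlap between groups. Apical progenitor markers such as Vim and Hes5 were at 4108, 3937 and 3592 CPM in the controls and at 3073, 2849.6 and 2487 CPM in the Insm1 libraries, with 5 of 10 called lower. Projection neuron markers such as Tubb3 and Neurod6 were at 7295, 7029 and 7203 CPM in the controls and at 8129.6, 8688 and 8838 CPM in the Insm1 libraries, with 4 of 9 called higher. Endothelial markers summed to only 3.20 to 4.44 CPM, meningeal fibroblast markers to 2.66 to 3.89 CPM and interneuron markers to 5.53 to 16.3 CPM. Mural markers, mostly Notch3, were at 36.3, 40.6 and 29.996 CPM in the controls and at 22.8, 25.4 and 16.5 CPM in the Insm1 libraries, with 0 of 4 tested called. All 8 erythroid markers were highest in control 2 among the controls. Led by Hbb-y and Hba-a1, they summed to 717, 5266 and 307 CPM in the controls and to 4902, 4837 and 3501 CPM in the Insm1 libraries, so control 2 stood with the Insm1 group. Cajal-Retzius markers such as Reln and Trp73 were at 140, 35.4 and 135 CPM in the controls and at 54.1, 42.8 and 35.7 CPM in the Insm1 libraries, and all 6 of them were lowest in control 2 among the controls. Mitochondrial mRNAs, a sign of RNA quality, summed to 16282 CPM in control 2 and to 17313 to 19609 CPM in the others. All 10 of them were lowest in control 2 among the controls. Genes with at least 1 count numbered 15362 in control 2 and 15581 to 15855 in the others. Heat shock and immediate early genes, which respond to handling stress, summed to 1007, 839.6 and 913 CPM in the controls and to 819.5, 806 and 822 CPM in the Insm1 libraries, with 1 of 9 (Jun) called lower. The part of these differences in the spread and the direction of the members was not tested.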

How the data were processed

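RNA was measured in 6 libraries, 3 control and 3 Insm1, with groups taken from the labels. Per the labels' protocols, cDNA was primed with poly-dT, template-switched, amplified and sequenced as single reads. The protocol marks no strand and carries no molecular identifiers. Reads were handled with bcl2fastq, Bowtie and TopHat2 2.0.13 on GRCm38, per the submitters' processing notes; how reads were assigned to genes is not given in the sources. The authors deposited whole-number counts per Ensembl gene, 30017645 to 31645135 per library. The TPM values deposited by the authors match counts divided by the whole gene span, introns included, to within 5% in 97.2% of 9980 genes with over 200 counts in control 1 (3.98% for merged exons). Levels of different genes were therefore compared as CPM per kilobase of merged exons, from GENCODE (GRCm38).

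Genes passing filterByExpr (13560) were scaled by TMM and compared by edgeR 4.0.16 (R 4.3.3), robust quasi-likelihood, two-sided, with calls at 0.05 after Benjamini-Hochberg adjustment over all of them. SDs of log2 CPM used a prior count of 2. In simulated counts for this comparison over 13560 genes, drawn independently, 41.8%, 71.6% and 84.8% of genes changed 1.5-, 2- and 4-fold were recovered, with 16 false calls. The changed genes were picked from all tested genes, so these rates do not describe the members. The median biological coefficient of variation, a measure of spread beyond counting error, was 0.668 in tested members and 0.129 in all tested genes. The members and lists were chosen with earlier results of these data known. Named were members called, at 5 CPM or more in either group, or among the 5 largest SDs or the 5 largest fold changes, and from each other list up to 3 called genes or the 2 most abundant. Untested members, cGAS, and those said to be singled out were added, and members within a counted set are listed by name. The comparison was repeated with DESeq2 1.42.0, with upper-quartile or RLE scaling, without the robust option, with no filter or one of 1 CPM in 3 libraries, with limma 3.58.1 on log2(TPM + 1), with a block for replicate number, and without each library in turn. Removal of control 2 and Insm1 library 2 together was chosen after seeing the data. Values of 1 member are not reported here, though counts over all members include it.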

Additional observations from a re-analysis of the deposited data

How the results depend on the processing

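The count of members called was 1 and became 7 with DESeq2, 0 with limma on log2(TPM + 1) and 0 with a filter at 1 CPM in 3 libraries, which no longer tested Mx2. The count of all genes called, 454, became 1004 with DESeq2 and 60 with limma on log2(TPM + 1). Other interferon-stimulated genes called, 1 of 30, became 2 with DESeq2 and 2 without a filter, and 0 with limma on log2(TPM + 1), with the 1 CPM filter, and without control 2 and Insm1 library 2 together. MHC class I genes called became 2 with DESeq2. Leaving out single libraries, members called lay between 0 and 3, all genes between 101 (without control 3) and 631 (without control 2), other interferon-stimulated genes between 0 and 2, MHC class I genes between 0 and 2, and the median log2 fold change of tested members between 0.94 and 1.67. Without Insm1 library 3 the members called were Ifi35, Mx2 and Oas1a. Without control 2 and Insm1 library 2 together, Gbp2 alone was called (edgeR adjusted p = 0.0427), and Mx2 had an edgeR adjusted p of 0.0534. The median was 0.68 with limma on log2(TPM + 1), a scale that understates low genes. The cause of these changes was not tested, beyond the smaller number of libraries or genes.

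Among the genes whose fold changes were followed by name, direction turned for Tbk1, Irf3, Irf5, Irf2 and Ifit2. The log2 fold change of Tbk1 became 0.00086 with RLE scaling, 0.00086 with DESeq2, 0.0040 with no filter, 0.0076 with the replicate block, and, with single libraries left out, lay between -0.11 and 0.14. Irf3 became -0.041 on log2(TPM + 1) and lay between -0.086 and 0.13 with single libraries left out. Irf5 became 0.0057 on log2(TPM + 1), 0.16 with the replicate block, and lay between -1.75 (without Insm1 library 2) and 2.79 (without control 2). Without control 2 and Insm1 library 2 together, Irf2 became -0.028 and Ifit2 0.046. Without Insm1 library 2 the log2 fold changes of Mx2, Rsad2, Oasl2, Isg15 and Irf7 were 3.89, 2.42, 1.86, 1.14 and 1.06, and without control 3 those of Rsad2, Oasl2, Isg15, Usp18 and Irf7 were 4.25, 4.11, 2.95, 2.79 and 2.66.

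Libraries of the same number deviated together with correlations of 0.074, 0.035 and -0.055. Those of different numbers lay between -0.097 and 0.065, so no pairing by number was visible. Whether the numbers mark a shared litter or day is not known. With the replicate block 331 genes and 1 member were called, and Mx2 had an edgeR adjusted p of 0.0376. Depth limits the 26 untested members, whose median total was 12 counts over the 6 libraries.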
